A study of Mus musculus with 22 samples.

Results

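The transcripts of 10 adipokines and other secreted signals of fat (Lep, Adipoq, Retn, Cfd, Rbp4, Nrg4, Apln, Nampt, Fgf21 and Angptl4) were followed in white adipose tissue (WAT) of mice after thyroid hormone (TH). The genes were picked by name as signals that fat secretes, with earlier results of these data known, and are 10 of the 47643 rows of the WAT count table and 10 of the 55341 rows of the striatum table. The mice are described as wild-type C57BL/6J males of 8 weeks. The WAT control group consisted of 4 libraries from mice kept hypothyroid for 2 weeks with propylthiouracil (PTU), a drug that blocks hormone synthesis in the thyroid. The 2 other WAT groups of 4 libraries each were taken 6 h and 24 h after TH. Their own labels name no PTU, but the series is described as TH given to hypothyroid mice, and the study's overview lists PTU in the food and then a single injection of T3 with T4 for WAT. Striatum had 2 PTU libraries, 4 taken 12 h after TH and 4 taken 24 h after TH. For striatum the overview lists the same injection but no hypothyroid procedure, so PTU there rests on the labels and the series description. The WAT depot is not given in the sources used here. Nothing says whether libraries of a group came from separate mice, so p-values measure the spread between libraries.

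Adipokines are proteins that fat releases into the blood and that tell brain, liver, muscle and vessels how much lipid is stored. Leptin restrains food intake, adiponectin sensitises tissues to insulin, and angiopoietin-like 4 blocks lipoprotein lipase at the vessel wall. TH acts through nuclear receptors bound to DNA and raises energy expenditure, in part through heat production in brown and beige fat.

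WAT libraries held 17.3 to 26.9 M counts and striatum libraries 8.04 to 10.1 M. The hormone was visible in every WAT library, since Hr, a classical target of the TH receptor, had 91.0 to 167 normalised counts in the PTU libraries and 1228 to 2738 in the 8 TH libraries. A normalised count is a count divided by the effective size of its library and brought to the mean size of the tissue. Of 4 genes chosen to check the hormone (Hr, Klf9, Thrsp and Me1), 2 were called higher in WAT at 6 h and 3 at 24 h. All genes called higher made up 4.18% and 7.45%. Klf9 rose by 1.94 and 1.30 on the log2 scale. Thrsp rose at 24 h by 1.20, called in 6 of 12 fits without 1 library. In striatum Hr and Klf9 were called higher at 12 h and 24 h, and the 2 others were not. Of all genes 0.960% and 0.348% were called there in either direction. Klf9 was called in 2 of 10 fits without 1 library at 12 h and in 8 of 10 at 24 h. Hr was called in 9 of 10 at each time. The 10 markers of adipocytes were all detected in WAT, with sums of 544072 to 699505 normalised counts in the PTU libraries, 512930 to 601500 at 6 h and 370230 to 525310 at 24 h. At 24 h 3 were lower, the lipid droplet genes Plin1 (log2 change -0.89) and Cidec (-1.87) and the lipase Lpl (-0.78), 1 was higher, the triglyceride lipase Pnpla2 (0.63), and 6 were not called. Of all genes 9.62% were called lower and 7.45% higher at 24 h. The 10 markers had a median log2 change of -0.60 where all genes tested had 0.00. In bulk tissue fewer cells of a type and less RNA per cell cannot be told apart.

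The RefSeq promoters of 4 genes are shown because their transcripts took different courses after TH. Each window holds the 250 bases before the annotated start, read 5′ to 3′ on the strand of the gene (GRCm38.p6). Matches were sought on both strands for 7 motifs, and capitals mark a match. These were the TH receptor hexamer AGGTCA, its direct repeats with 4 bases or 1 base between them, which contain the hexamer, the E-box CACGTG of clock factors, the C/EBP palindrome TTGCGCAA, the TATA box TATAAA and the CCAAT box. Nrg4 rose at 6 h (chr9:55283626-55283875, minus strand, inside the longer GENCODE gene), Adipoq fell by 24 h (chr16:23146286-23146535, plus strand), Lep had overlapping groups (chr6:29059971-29060220, plus strand) and Apln rose at both times (chrX:48034854-48035103, minus strand).
Nrg4: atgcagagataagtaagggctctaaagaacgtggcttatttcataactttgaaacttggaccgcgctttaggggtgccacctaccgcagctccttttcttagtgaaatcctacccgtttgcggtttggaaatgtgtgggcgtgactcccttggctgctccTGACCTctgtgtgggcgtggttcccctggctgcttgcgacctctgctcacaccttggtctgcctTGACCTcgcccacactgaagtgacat
Adipoq: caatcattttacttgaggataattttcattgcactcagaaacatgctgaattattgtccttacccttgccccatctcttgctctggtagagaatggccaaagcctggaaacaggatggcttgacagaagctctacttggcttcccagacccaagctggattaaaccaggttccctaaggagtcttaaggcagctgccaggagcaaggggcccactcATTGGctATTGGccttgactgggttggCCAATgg
Lep: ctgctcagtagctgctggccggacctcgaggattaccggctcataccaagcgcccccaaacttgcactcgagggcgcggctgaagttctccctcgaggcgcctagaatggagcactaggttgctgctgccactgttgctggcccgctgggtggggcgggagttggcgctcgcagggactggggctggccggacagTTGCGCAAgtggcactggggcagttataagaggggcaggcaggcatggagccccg
Apln: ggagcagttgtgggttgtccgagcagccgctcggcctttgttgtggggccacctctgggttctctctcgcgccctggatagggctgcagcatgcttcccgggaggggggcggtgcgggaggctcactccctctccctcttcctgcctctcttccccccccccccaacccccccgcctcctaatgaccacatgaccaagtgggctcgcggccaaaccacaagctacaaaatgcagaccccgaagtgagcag
Nrg4 had 2 hexamers, which began 90 and 26 bases before the start, Adipoq had 3 CCAAT boxes and Lep had the palindrome 55 bases before the start. At least 1 hexamer occurred in 4607 of 32851 RefSeq windows of this length, at least 1 CCAAT box in 33.8% and the palindrome in 0.164%. Windows with as many matches as Nrg4 or Adipoq were not counted. The Apln window held none of the 7 motifs. Of the other members with a window, Nampt had 1 hexamer at 151 bases, Fgf21 had an E-box (6.02% of windows) and a TATA box (12.4%), and each start of Rbp4 had 1 match, a CCAAT box for one and a TATA box for the other. Retn and Cfd had none, and no direct repeat (0.0152% and 0.0335% of windows) was found in the 9 members searched. Angptl4 had no window and was not searched. A match of letters shows no binding, and none was measured.

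In the PTU libraries the members spanned a wide range of levels per kb of exon and M counts. Cfd, the complement protease adipsin, led with 8589 ± 1576 (SD, n = 4), ahead of Adipoq with 2600 ± 407, Retn with 878 ± 198 and Rbp4 with 366 ± 85.7. The ranges of these 4 genes did not overlap. Lep (50.9 ± 15.7) and Angptl4 (39.5 ± 24.1) followed with overlapping ranges, and the spread-out Angptl4 also reached the ranges of Nampt (17.7 ± 4.45) and Nrg4 (9.19 ± 1.15), which did not meet each other. Apln (0.375 ± 0.157) and Fgf21 (0.194 ± 0.143) overlapped at the low end. The 10 genes together took 1.18% to 1.49% of WAT counts with PTU, 1.28% to 1.57% at 6 h and 0.944% to 1.08% at 24 h, and the 24 h libraries lay below all others. Cfd and Adipoq, with means of 159100 and 72568 counts with PTU, weigh most in these shares, which do not describe each member.

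**Figure D1:**
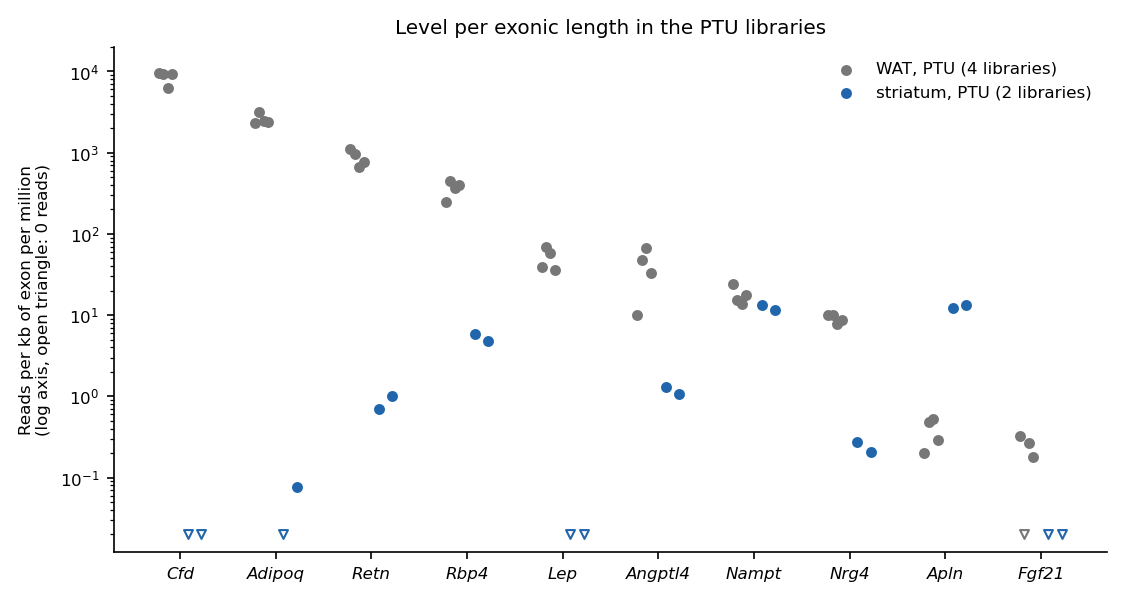
Level of each of the 10 genes in the PTU libraries, as reads per kb of exon per M counts on a log axis, with 1 point per library and open triangles for 0 reads. In WAT (4 libraries) Cfd leads with a mean of 8589 and Fgf21 is last with 0.194, and Apln is the gene whose striatum points (2 libraries, mean 12.8) lie well above its WAT points (mean 0.375). The 2 tables were made separately, so tissues are only set side by side.

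Of the 10 genes, 9 passed the filter on low counts in WAT (mean normalised count above 10) and Fgf21 did not. At 6 h 3 of the 9 were called (adjusted p under 0.05, quasi-likelihood F test of edgeR, adjusted over all 17928 genes tested), Nrg4 and Apln higher and Rbp4 lower than with PTU. The share of all genes called at 6 h was 7.23%, made up of 4.18% above PTU and 3.05% below. At 24 h 4 were called, Apln higher and Adipoq, Rbp4 and Retn lower, where 17.1% of all genes were called, 7.45% higher and 9.62% lower. The groups did not overlap for 3 members at 6 h (13.9% of all genes) and for 4 at 24 h (19.3%). The median log2 change of the 9 members was 0.12 at 6 h and -0.04 at 24 h, beside -0.03 and 0.00 over all genes. Both contrasts use the same PTU libraries and are not independent. Between 24 h and 6 h, 1 member, Adipoq, was called, lower at 24 h, where 7.41% of all genes were called and 4.35% were lower. The 24 h and 6 h groups did not overlap for 2 of the tested members, Adipoq and Nampt, and for 21.8% of all genes.

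**Figure D2:**
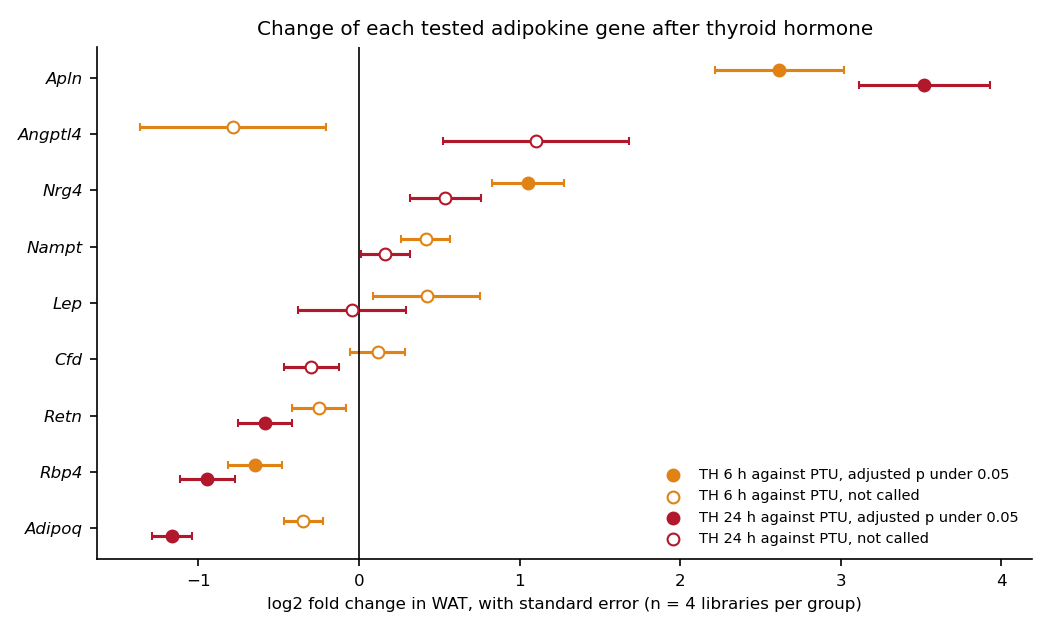
Log2 fold change in WAT of the 9 members tested, at 6 h (orange) and 24 h (red) after TH against PTU, with standard errors (n = 4 libraries per group) and filled symbols for adjusted p under 0.05. Apln rose most (2.62 and 3.52), Nrg4 rose at 6 h (1.05), and Adipoq fell most at 24 h (-1.17), with Rbp4 (-0.95) and Retn (-0.58) also lower.

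Adipoq (chromosome 16, 23146536 to 23158028, plus strand) encodes adiponectin, which circulates in multimers and is made almost only by adipocytes. The PTU libraries 1 to 4 had 69711, 95132, 72676 and 70959 normalised counts, the 6 h libraries had 55898, 59447, 66047 and 61359, and the 24 h libraries had 32295, 35161, 33505 and 36565. No library of one group reached the range of another, and the order was PTU, 6 h, 24 h from high to low. The log2 change was -0.35 ± 0.12 (SE) at 6 h, not called (adjusted p 0.104), although DESeq2 called it (adjusted p 0.0145). At 24 h Adipoq fell by 1.17 ± 0.12 on the log2 scale (adjusted p 8.42e-05), and between 6 h and 24 h by 0.82 ± 0.12 (adjusted p 0.00268). Leaving out any 1 of the 12 WAT libraries kept both calls, as did the 8 other alternatives. As a percent of the summed adipocyte markers, Adipoq was 12.9 ± 0.589 with PTU, 10.7 ± 0.764 at 6 h and 7.72 ± 1.02 at 24 h (SD, n = 4 each), so it was lower at 24 h against these markers too, without overlap.

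Rbp4 (chromosome 19, 38116629 to 38125281, minus strand) encodes the plasma carrier of retinol, which liver and fat secrete. It had 7210, 13072, 10520 and 11451 normalised counts with PTU, 6212, 6051, 6520 and 8179 at 6 h, and 4701, 5803, 6055 and 5374 at 24 h. PTU replicate 1 was the low library of its group and lay under 6 h replicate 4, while all 24 h libraries lay below all PTU libraries. On the log2 scale Rbp4 fell by 0.65 ± 0.17 at 6 h (adjusted p 0.0389). At 24 h the log2 change was -0.95 ± 0.17 against PTU (adjusted p 0.00299), and from 6 h to 24 h the change of -0.30 was not called (adjusted p 0.309). The 24 h call held in all 20 alternatives. The 6 h call was kept in 3 of the 12 fits without 1 library. It was lost without PTU replicates 2, 3 or 4 (0.109, 0.0534 and 0.088), 6 h replicates 1, 2 or 3 (0.105, 0.0986 and 0.0921) and 24 h replicates 2, 3 or 4 (0.0516, 0.0563 and 0.0566), and its adjusted p was 0.00474 without PTU replicate 1. It was also lost in the fit of the 2 groups alone (0.0948). Against the adipocyte markers Rbp4 was 1.76% ± 0.315 with PTU, 1.19% ± 0.143 at 6 h and 1.22% ± 0.0780 at 24 h of their sum. On this measure the 6 h range overlapped that of PTU, and the 24 h range lay below it. The 5 liver markers summed to 30360 to 52422 normalised counts with PTU, 25335 to 48829 at 6 h and 12047 to 22584 at 24 h, mostly from Cyp2e1, which fat also expresses. Of the 4 that were tested, at 24 h Cyp2e1 fell by 1.24 (adjusted p 0.0072) and Alb by 0.84 (adjusted p 0.0145, to 987 ± 104 normalised counts), Serpina1a rose by 0.95 (adjusted p 0.0304) and Apoa1 was not called. Fgb, too low to be tested, was at 0 in the 24 h libraries. Their part in the Rbp4 result was not tested.

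Retn (chromosome 8, 3655770 to 3660110, plus strand) encodes resistin, a cysteine-rich adipokine of mouse adipocytes. It had 37936, 32314, 22910 and 25879 normalised counts with PTU, 20079, 22683, 26756 and 30672 at 6 h, and 18735, 20735, 19973 and 19928 at 24 h. The 6 h libraries lay across the PTU range, and the 24 h libraries formed a narrow band below both PTU and most 6 h values. The log2 change was -0.25 ± 0.17 at 6 h (adjusted p 0.374), and Retn fell by 0.58 ± 0.17 at 24 h (adjusted p 0.0323). This call was kept in 6 of 12 fits without 1 library and lost without PTU replicate 1 or 2 (0.0561 and 0.0876) and without 24 h replicate 1, 2, 3 or 4 (0.0801, 0.0564, 0.0705 and 0.0672), and in the fit of the 2 groups alone (0.0533). As a percent of the adipocyte markers Retn was 5.03 ± 1.35 with PTU and 4.45 ± 0.493 at 24 h, and these ranges overlapped.

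Cfd and Lep were not called in any contrast. Cfd (chromosome 10, 79890853 to 79892655, plus strand) had 187735, 182424, 123378 and 186763 normalised counts with PTU, 153418, 155809, 233113 and 195772 at 6 h, and 132706, 127467, 137454 and 155810 at 24 h. PTU replicate 3 was the lowest of the 12 libraries, and the groups overlapped. Its log2 change was 0.12 ± 0.17 at 6 h (adjusted p 0.702), which turned negative without PTU replicate 3 or 6 h replicate 3 (-0.01 each), and -0.30 ± 0.17 at 24 h (adjusted p 0.254).

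Lep (chromosome 6, 29060220 to 29073877, plus strand), the satiety hormone whose transcript follows fat mass and feeding, had 2843, 5004, 4207 and 2620 normalised counts with PTU, 3931, 5361, 4240 and 6110 at 6 h, and 5059, 2784, 1490 and 4898 at 24 h. The highest 24 h library had 3.39 times the lowest, and all 3 groups overlapped. The 6 h log2 change of 0.42 ± 0.34 had an adjusted p of 0.453, and that of -0.04 ± 0.34 at 24 h had one of 0.940. At this spread no direction can be read at 24 h, where the change ran from -0.26 to 0.22 over the fits without 1 library.

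**Figure D3:**
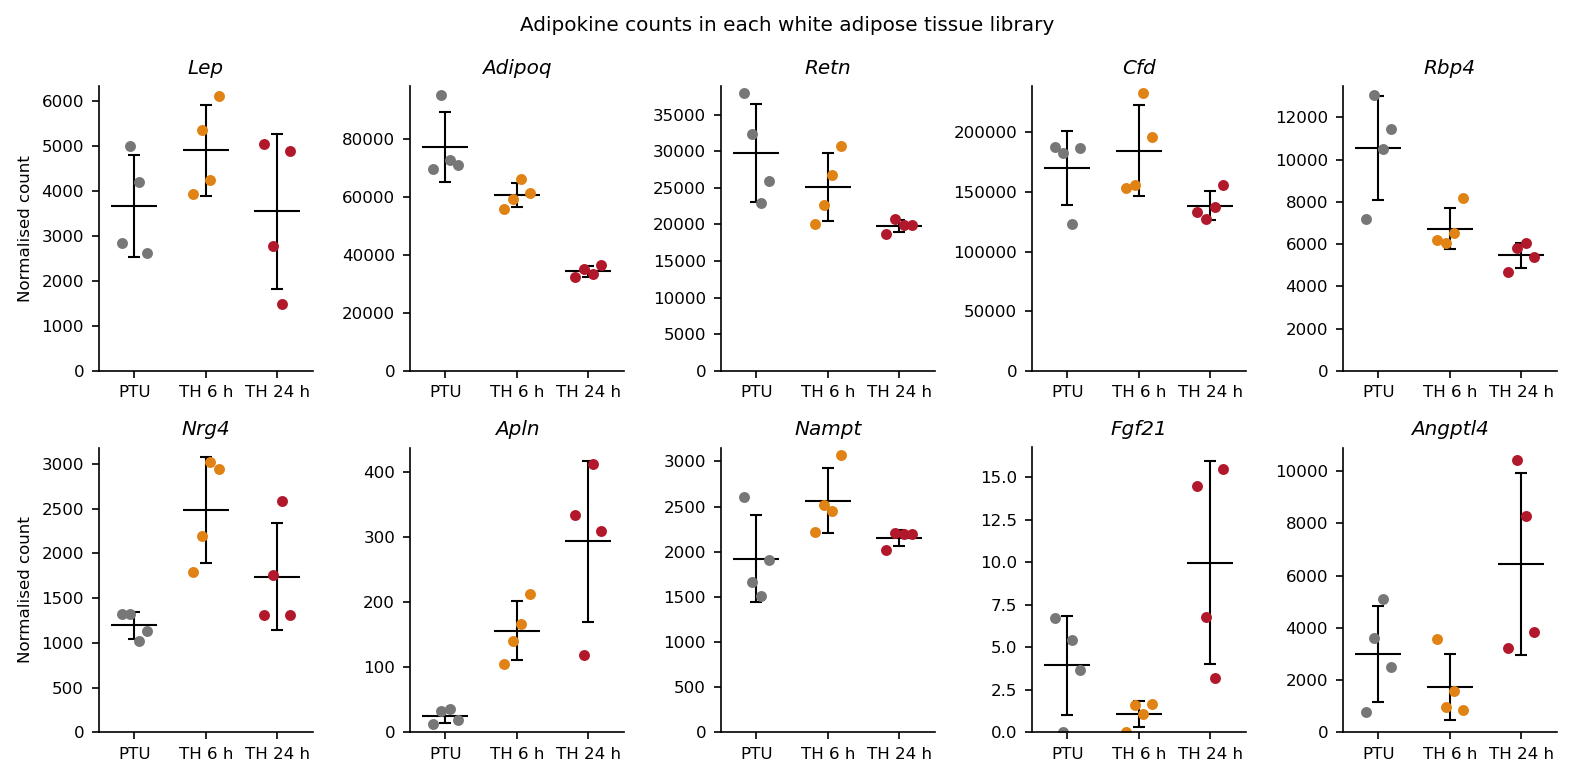
Normalised counts of the 10 genes in each of the 12 WAT libraries (linear axes from 0), with the group mean and SD as bars (n = 4). Adipoq steps down from a mean of 77120 with PTU to 60688 and 34381, Apln climbs from 25.4 to 156 and 293, and the Lep, Cfd and Nampt groups overlap with PTU.

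Apln and Nrg4 rose. Apln (chromosome X, 48025146 to 48034853, minus strand) encodes the precursor of apelin, a vasoactive peptide that signals through the receptor Aplnr. It had 13.4, 32.3, 36.1 and 19.7 normalised counts with PTU, 105, 141, 167 and 213 at 6 h, and 334, 119, 412 and 309 at 24 h. Every TH library lay above every PTU library, and 24 h replicate 2 was the low library of its group, inside the 6 h range. Apln rose 6.13-fold at 6 h (log2 change 2.62 ± 0.40, SE, adjusted p 0.0021) and 11.5-fold at 24 h (3.52 ± 0.41, adjusted p 0.000157), and both calls held in all 20 alternatives. From 6 h to 24 h the change was 0.90 ± 0.35 (adjusted p 0.135), called without 24 h replicate 2 (0.0382) and in no other alternative. The PTU libraries held 14 to 40 Apln counts each, so the folds rest on a low base. Its receptor Aplnr was not called (0.22 ± 0.38 at 6 h and -0.36 ± 0.39 at 24 h, adjusted p 0.755 and 0.556).

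Nrg4 (chromosome 9, 55220222 to 55326844, minus strand) encodes neuregulin 4, a ligand of ErbB4 that is abundant in brown fat and acts on the liver. It had 1318, 1325, 1019 and 1133 normalised counts with PTU, 1787, 2191, 3017 and 2942 at 6 h, and 1315, 1755, 2583 and 1311 at 24 h. All 6 h libraries lay above all PTU libraries, while 2 of the 24 h libraries lay within the PTU range. Nrg4 rose by 1.05 ± 0.22 at 6 h (SE, 2.07-fold, adjusted p 0.0155), called in all 20 alternatives with an adjusted p of at most 0.0479. At 24 h the change was 0.54 ± 0.22 (adjusted p 0.118). The change from 6 h to 24 h was -0.51 ± 0.22 (adjusted p 0.179), called in 1 alternative, without 24 h replicate 3 (0.0428). Of 7 markers of brown and beige adipocytes 6 were tested, and none was called lower. At 6 h 1 was called higher and at 24 h 4, where 4.18% and 7.45% of all genes were higher. The sums of the 7 markers were 1760 to 3628 normalised counts with PTU, 4716 to 9614 at 6 h and 7931 to 22803 at 24 h. Ucp1, the uncoupler of brown fat, was the one called at 6 h and rose at both times (log2 change 4.80 and 6.24). By replicate, 1 to 4, the sums were 4716, 6170, 9614 and 8446 at 6 h and 7931, 18886, 22803 and 8147 at 24 h. At 6 h the libraries had the same order in these sums and in Nrg4. At 24 h replicates 2 and 3 were highest in both, and with PTU the orders differed. The part of these markers in the Nrg4 values was not tested. Nrg4 shares 368 exonic bases with Fbxo22 and 177 with the pseudogene Gm15625 on the opposite strand, and the strand setting of the counting is not known.

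Nampt (chromosome 12, 32819545 to 32853349, plus strand) encodes visfatin, which is also the enzyme that salvages nicotinamide for NAD. It had 2604, 1668, 1509 and 1908 normalised counts with PTU, 2219, 2516, 2454 and 3073 at 6 h, and 2017, 2205, 2195 and 2200 at 24 h. PTU replicate 1 was high and lay inside the 6 h range. The log2 change was 0.42 ± 0.15 at 6 h (adjusted p 0.119), and Nampt was called without PTU replicate 1 (0.61, adjusted p 0.0108) and in no other alternative. At 24 h it was 0.16 ± 0.15 (adjusted p 0.489). Nampt is a known output of the circadian clock, and 4 clock genes, chosen after their values were seen, differed at 6 h. Dbp had means of 114, 2882 and 172 normalised counts with PTU, at 6 h and at 24 h, Per1 had 382, 994 and 499, Arntl had 464, 88.2 and 534, and Npas2 had 247, 15.6 and 268. The labels give no hour of collection, so the time of day and the time after TH cannot be told apart for any 6 h result.

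Angptl4, which fasting is known to raise, and Fgf21 had their lowest group means at 6 h. The 6 h change of Angptl4 against PTU was not called, and Fgf21 did not pass the filter on low counts. At 24 h replicates 2 and 3 had the most Angptl4 (10403 and 8278 normalised counts) and the fewest Fgf21 counts (7 and 3). A part of feeding in these values was not tested. Angptl4 (chromosome 17, 33773750 to 33781830, minus strand) had 763, 3626, 5105 and 2509 normalised counts with PTU, 3559, 989, 1583 and 845 at 6 h, and 3244, 10403, 8278 and 3848 at 24 h. The PTU libraries differed among themselves by 6.69 times, and 3 of the 6 h libraries lay below 3 of the PTU and all 24 h libraries. No contrast was called. The log2 change was -0.78 ± 0.58 at 6 h (adjusted p 0.417), 1.10 ± 0.58 at 24 h (adjusted p 0.214) and 1.89 ± 0.59 from 6 h to 24 h (adjusted p 0.0743). Without 1 library the 6 h value ran from -0.40 (PTU replicate 3) to -1.39 (6 h replicate 1), and it was not called in any of these fits. The change from 6 h to 24 h was called by DESeq2 (0.0306), without the filter on low counts (0.0361), in the fit of the 2 groups alone (0.0413), and without PTU replicate 1 (0.0322) or 6 h replicate 1 (0.0433).

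Fgf21 (chromosome 7, 45613886 to 45615490, minus strand), an endocrine growth factor made mainly by the liver, had 7, 0, 6 and 3 counts with PTU, 0, 2, 1 and 2 at 6 h, and 15, 7, 3 and 14 at 24 h. All 24 h libraries lay above all 6 h libraries, and both overlapped the PTU range. Without the filter on low counts the log2 change from 6 h to 24 h was 2.98 (adjusted p 0.0293), and those against PTU were -1.73 (0.342) and 1.25 (0.304). With a mean of 1.25 counts at 6 h the size of this change is poorly determined.

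Across the 12 WAT libraries the 3 members that fell were positively correlated to differing degrees. On log2 counts per M, Pearson's r was 0.83 between Adipoq and Rbp4, 0.76 between Adipoq and Retn, 0.59 between Retn and Rbp4, and -0.76 between Adipoq and Apln, while Nrg4 and Nampt had 0.72. These values describe libraries that share 3 group means and a common scaling. The genes most like each member were, by the same measure, Glod4 (0.99) and the sodium channel gene Scn7a (0.99) for Adipoq, Pcbd1 (0.97) and Dynlt3 (0.96) for Rbp4, Psma6 (0.95) and Sord (0.94) for Retn, and Ptrh2 (0.90) and Tmem192 (0.88) for Cfd. For Apln they were Acot11 (0.98), a thioesterase gene whose log2 change was 3.40 at 6 h and 5.19 at 24 h, and Slc35g1 (0.97). For Nrg4 they were Top1 (0.94) and Coq5 (0.92), for Nampt Cirh1a (0.93) and Gm16436 (0.91), for Angptl4 Gadd45g (0.93) and Bst2 (0.91), and for Lep Zfp426 (0.88) and Gm26965 (0.87). Lep was thus matched less closely than Adipoq.

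Of 20 receptors and binding partners of these signals 18 were tested. At 6 h 0 were higher and 2 lower, where 4.18% of all genes were higher and 3.05% lower, namely Klb (log2 change -0.75 ± 0.18, adjusted p 0.0268), the coreceptor of FGF21, and Fgfr1 (-0.65 ± 0.14, adjusted p 0.0136), the receptor it pairs with. At 24 h 2 were higher and 3 lower, where 7.45% of all genes were higher and 9.62% lower. Lpl, the lipase that Angptl4 inhibits, fell by 0.78 ± 0.14 (adjusted p 0.00284), Fgfr1 by 0.60 ± 0.14 (adjusted p 0.0101) and Cdh13, which binds adiponectin, by 0.51 ± 0.12 (adjusted p 0.0129), and Cfb, the complement factor that adipsin cleaves, rose by 0.66 ± 0.12 (adjusted p 0.00305). The median log2 change of the list was 0.04 at 6 h and -0.14 at 24 h, beside -0.03 and 0.00 over all genes. Fgfr1, Lpl, Cfb and Cdh13 kept these calls in all 12 fits without 1 library. Fgfr1 at 6 h was lost in the fit of the 2 groups alone (0.055), and Cdh13 at 24 h (0.0731) and Klb (0.065) were lost with the epithelium covariate. Klb was called in 7 of 12, and was lost without PTU replicate 2 (0.077) and without each 6 h library in turn (0.0549, 0.0635, 0.0577 and 0.0739 for replicates 1 to 4). The adiponectin receptors Adipor1 and Adipor2 were not called, nor was Lepr.

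Of 33 other secreted signals of fat 27 were tested, with 3 higher and 3 lower at 6 h (4.18% and 3.05% of all genes), and 5 higher and 4 lower at 24 h (7.45% and 9.62% of all genes). Angptl2, a relative of Angptl4, rose from 1284 ± 363 to 7027 ± 740 normalised counts at 6 h (log2 change 2.45 ± 0.17, adjusted p 5.22e-06) and stood at 2787 ± 133 at 24 h (1.12 ± 0.16, adjusted p 0.000735). Vegfa, the vessel growth factor, rose by 0.83 ± 0.16 and 0.97 ± 0.16 (adjusted p 0.0104 and 0.00207). C1qtnf1, a relative of adiponectin, rose by 0.97 ± 0.24 and 1.10 ± 0.24 (adjusted p 0.0314 and 0.0088), and Fgf1 rose at 24 h by 1.58 ± 0.27 (adjusted p 0.0023). Inhbb, a subunit of activin B, fell by 2.22 ± 0.48 and 2.11 ± 0.48 (adjusted p 0.0168 and 0.0107). The list had a median log2 change of -0.08 at 6 h and -0.02 at 24 h, where all genes had -0.03 and 0.00. The 6 h calls of C1qtnf1 and Inhbb each held in 9 of 12 fits without 1 library. C1qtnf1 was lost without PTU replicate 2 (0.0686) or 6 h replicate 2 or 3 (0.083 and 0.0541), and Inhbb without PTU replicate 2 (0.0513) or 6 h replicate 3 or 4 (0.0525 and 0.0559). The other calls of these 5 genes held in all 12. With the epithelium covariate Inhbb at 6 h (0.0504) and C1qtnf1 at 24 h (0.0794) were lost, and in the fit of the 2 groups alone C1qtnf1 at 6 h (0.0673).

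Of 13 genes that control or process adipokines 5 were higher and 0 lower at 6 h (4.18% and 3.05% of all genes), with a median log2 change of 0.35 beside -0.03 over all genes. At 24 h 4 were higher and 1 lower (7.45% and 9.62% of all genes), with a median of 0.00 for both. Ppargc1a, the coactivator of mitochondrial genes, rose by 3.10 ± 0.18 at 6 h and 2.38 ± 0.18 at 24 h (adjusted p 1.24e-06 and 8.87e-06). Ppara, the fatty acid receptor of oxidative tissues, rose at 6 h by 2.08 ± 0.43 (adjusted p 0.0125), Foxo1 by 0.79 ± 0.08 (adjusted p 0.000105), and Cebpb by 0.79 ± 0.22 at 6 h and 1.67 ± 0.22 at 24 h (adjusted p 0.0469 and 0.000407). Furin, a protease of secretory precursors, rose by 1.01 ± 0.19 at 24 h (adjusted p 0.00398). Pparg, the adipocyte regulator that drives Adipoq, fell by 0.70 ± 0.17 at 24 h (adjusted p 0.0151), called in 11 of 12 fits without 1 library and not without 24 h replicate 3 (0.0503). Cebpb at 6 h was called in 4 of 12 fits without 1 library. It was lost without PTU replicates 1, 2 or 3 (0.0723, 0.116 and 0.0669), 6 h replicates 1, 3 or 4 (0.114, 0.0691 and 0.103) and 24 h replicates 1 or 4 (0.0647 and 0.0641), in the fit of the 2 groups alone (0.0616), and with the replicate block (0.0636), the muscle covariate (0.0596) or the epithelium covariate (0.136).

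**Figure D4:**
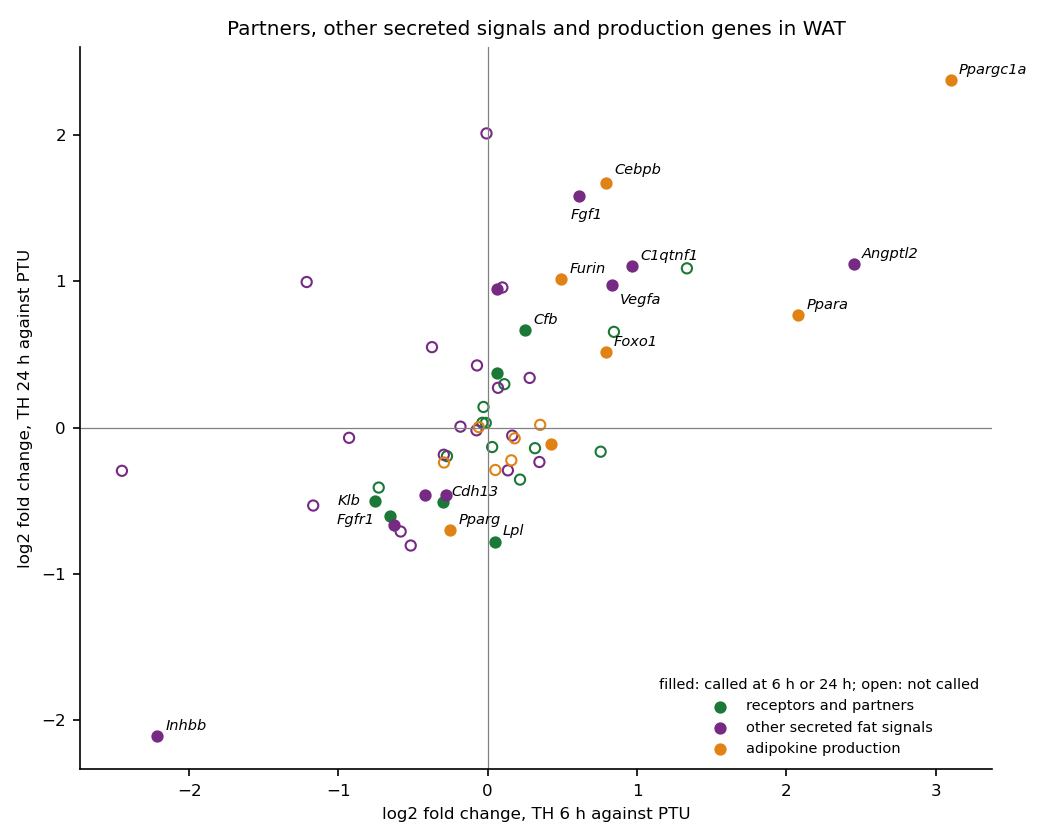
Log2 fold change at 6 h (horizontal) and 24 h (vertical) after TH against PTU in WAT for receptors and partners (green), other secreted signals (purple) and production genes (orange), filled where called at either time. Ppargc1a (3.10 and 2.38) lies at the upper right and Inhbb (-2.22 and -2.11) at the lower left, while most receptors lie near 0.

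The cell types that WAT can hold did not move as one. Sums of 7 macrophage markers were 9521 to 12335 normalised counts with PTU, 6671 to 13127 at 6 h and 10650 to 13128 at 24 h, and those of 6 endothelial markers 9718 to 14881, 9411 to 11249 and 9116 to 12159. The 5 stromal progenitor markers summed to 14091 to 19788 with PTU, 8151 to 14351 at 6 h and 9726 to 16017 at 24 h. Of these 5, 1 was called lower at 6 h, where 3.05% of all genes were lower. The 4 mesothelium markers had low sums, 41.8 to 63.4 with PTU, 19.7 to 33.6 at 6 h and 38.8 to 71.1 at 24 h. All 6 h libraries lay below all others there, and the part of this in the 6 h results was not tested. Skeletal muscle markers ran from 868 to 484745 over the 12 libraries, with overlap of all groups. Epithelial and epididymal markers were 3.59 to 287 with PTU, 32.2 to 2699 at 6 h and 2.12 to 9.96 at 24 h, so 6 h and 24 h libraries differed there. With the log2 sum of these epithelial markers as a covariate, Adipoq and Rbp4 at 24 h, Nrg4 at 6 h and Apln at both times stayed called, and Rbp4 at 6 h (0.13) and Retn at 24 h (0.0917) did not. This covariate is partly tied to the groups, since 6 h and 24 h libraries did not meet in it. Kept or lost calls therefore do not show what part these markers had. With the muscle sum as covariate all 7 calls of members against PTU were kept.

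In striatum 4 of the 10 signals, Lep, Fgf21, Adipoq and Cfd, were at or near 0 and did not pass the filter. Lep and Fgf21 had 0 counts in all 10 libraries, which allows up to 0.373 counts per M in the shallowest. Adipoq had at most 3 counts and Cfd at most 11. The 6 others passed. Per kb of exon and M counts, Apln (12.8 ± 0.789, SD, n = 2) and Nampt (12.4 ± 1.17) were highest with PTU, with overlapping ranges, followed by Rbp4 (5.37 ± 0.732), Angptl4 (1.18 ± 0.156), Retn (0.852 ± 0.207) and Nrg4 (0.241 ± 0.0476). Plin1 reached at most 2.24 normalised counts in striatum. The 6 striatal projection neuron markers summed to 26704 and 39138 normalised counts with PTU, 13745 to 23863 at 12 h and 1754 to 36969 at 24 h. The 4 cortical neuron markers summed to 3694 and 6686 with PTU, 8877 to 14107 at 12 h and 5331 to 21838 at 24 h, so that PTU and 12 h libraries did not overlap in either sum. The part of these markers in the striatum values was not tested. The lowest striatal and the highest cortical sum were both in 24 h replicate 2, so the markers of striatum were nearly absent from a library labelled as striatum. Without it the calls of members described next stayed as they are, with Apln at 24 h at an adjusted p of 0.0365.

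At 12 h edgeR called 0 of the 6 in striatum, where 0.960% of 15827 genes were called. An unadjusted p under 0.05 was reached by 0 of the 6 and by 20.2% of all genes, and DESeq2 also called 0 of the 6. At 24 h 1 of the 6, Apln, was called and higher, where 0.348% of all genes were called and 0.316% were higher. Apln had 363 and 396 normalised counts with PTU, 520, 367, 424 and 400 at 12 h, and 732, 738, 583 and 751 at 24 h. All 24 h libraries lay above all others. Apln changed by 0.17 ± 0.15 at 12 h (adjusted p 0.543) and rose by 0.89 ± 0.15 at 24 h (SE, 1.85-fold, adjusted p 0.0418). Groups did not overlap for 1 of the 6 at 12 h, Angptl4, and for 36.4% of all genes. At 24 h they did not overlap for 3 of the 6, Apln, Angptl4 and Nrg4, and for 18.2% of all genes. The striatum libraries are labelled male, yet 6 of the 10 had 22070 to 33693 normalised counts of Xist, the RNA of an inactive X chromosome, and the other 4 had 2.73 to 17.8. Apln is X-linked, and all 4 libraries at 24 h belonged to the first kind. Among libraries with high Xist, Apln had 396 in the PTU library, 520 in the 12 h library and 583 to 751 in the 4 libraries at 24 h. Among those with low Xist it had 363 in the PTU library and 367 to 424 in the 3 libraries at 12 h. With high Xist as a covariate the log2 change at 24 h was 0.74 and was not called (adjusted p 0.132). The call was kept in 3 of 10 fits without 1 library. It was lost without PTU replicate 3 or 6 (0.582 and 0.258), 12 h replicate 2, 3 or 4 (0.0851, 0.0907 and 0.0743) and 24 h replicate 1 or 4 (0.0888 and 0.125), and in the fit of the 2 groups alone (0.153).

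**Figure D5:**
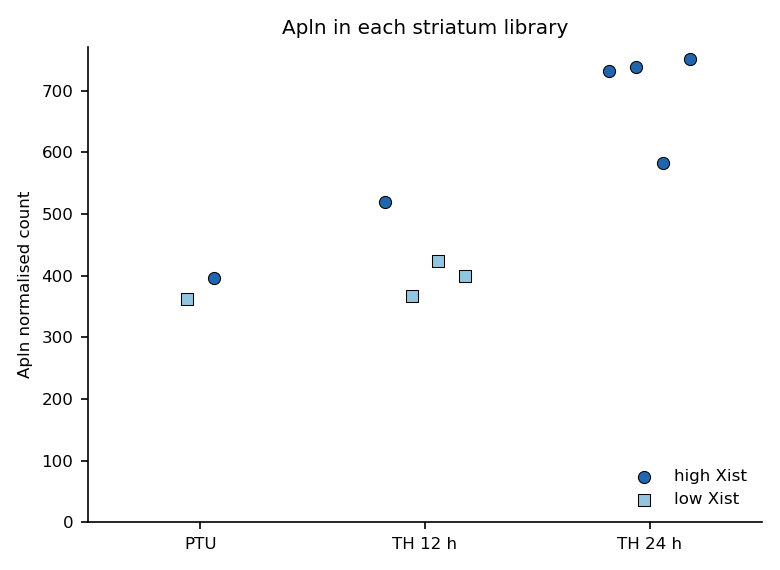
Normalised counts of Apln in the 10 striatum libraries by group, with circles for libraries with high Xist and squares for those with low Xist. The 4 libraries at 24 h, all with high Xist, sit between 583 and 751, above the 2 PTU libraries (363 and 396) and the 4 at 12 h (367 to 520).

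The 5 other members tested in striatum were not called at either time. Nampt had 552 to 631 normalised counts with PTU, 533 to 613 at 12 h and 561 to 642 at 24 h, a log2 change of -0.03 ± 0.10 (adjusted p 0.876) and 0.04 ± 0.10 (adjusted p 0.920), the smallest of the members there. Angptl4 had 35.6 and 43.0 with PTU and 21.3 to 33.3 in the 8 TH libraries, which lay below both, with log2 changes of -0.42 ± 0.21 and -0.40 ± 0.22 (adjusted p 0.303 and 0.605). Rbp4, Retn and Nrg4 had at most 82.2 normalised counts in any striatum library, and their log2 changes lay between -0.72 and -0.07 with adjusted p of at least 0.441.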

How the data were processed

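RNA from 12 WAT and 10 striatum libraries was sequenced (Lexogen SENSE kit, NextSeq 500), and for each tissue the authors deposited raw counts in 1 table whose rows are gene symbols. For both tables the authors describe alignment with Bowtie2 2.2.6.2 to mm10, removal of alignments of quality below 10 and counting with htseqcount; the annotation and strand setting are not given in the sources used here. In WAT 86 rows copied an earlier row within 2%, as reads counted at several genes would give, and none copied a member. Rows whose symbols had become dates (15 in WAT with at most 0.0825% of counts, 14 in striatum with at most 0.201%) were left out, since they name no gene.

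Counts were analysed in R 4.3.3. WAT and striatum were fitted separately, each with 3 groups and TMM factors, by the quasi-likelihood F test of edgeR 4.0.16 (two-sided), on genes with a mean normalised count above 10. The adjusted p is that of Benjamini and Hochberg across the 17928 genes tested in WAT or the 15827 in striatum, and a gene was called under 0.05. The SE is the size of the log2 change divided by the square root of F. The pipeline was tested on simulated data. DESeq2 1.42.0, other scaling, filters, covariates and left-out libraries were alternatives, of which the Xist covariate was chosen after seeing the data. Counts of 0 allow up to 3 counts in a library, for counting error only. Gene spans and exon lengths are from GENCODE M21 and promoters from RefSeq.

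The members, the 3 lists of related genes and the markers were chosen with earlier results of these data known. Named beside the members are the up to 4 called genes of each list with the largest change against PTU and the 2 genes most correlated with each member.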

Additional observations from a re-analysis of the deposited data

Results flagged for a closer look

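Among 46 groups of 4 libraries, one for each gene and group, 7 held a library far from the other 3 of its group. For independent normal values the cutoff gives about 1 in 20 groups. The groups here share libraries and some rest on few counts, so the 7 cannot be set against that rate. In WAT, PTU replicate 2 had 95132 normalised counts of Adipoq and the nearest PTU library had 72676. PTU replicate 3 had 123378 normalised counts of Cfd and the nearest had 182424. At 24 h replicate 1 had 2017 normalised counts of Nampt and the nearest had 2195, a gap that is wide only against a narrow group.

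In striatum, Cfd had 4.89 normalised counts in 12 h replicate 2 and 0 in the other libraries of that group, and 12.3 in 24 h replicate 2 with 2.01 in the nearest. These rest on 5 and 11 counts. Apln had 583 normalised counts in 24 h replicate 3 and 732 in the nearest library of the group, and it was called with and without that replicate (adjusted p 0.0418 and 0.0324, edgeR). Angptl4 had 21.3 normalised counts in 24 h replicate 2 and 31.3 in the nearest. The same 24 h replicate 2 had the highest sum of cortical neuron markers of its group (21838 normalised counts) and the lowest of striatal projection neuron markers (1754), whose part in the Cfd and Angptl4 values was not tested.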

How the results depend on the processing

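The count of members called against PTU in WAT stayed at 2 to 4 at 6 h and 3 to 4 at 24 h over the fits without 1 library, and that from 6 h to 24 h at 1 to 2. From 6 h to 24 h it was 2 with DESeq2, 3 without the filter on low counts and 2 in the fit of the 2 groups alone. In striatum 0 members were called at 12 h in every fit without 1 library and 0 to 1 at 24 h, with 0 in the fit of the 2 groups alone and 0 with the Xist covariate. Over all genes, the WAT count of 1296 at 6 h became 2145 with DESeq2, 834 with 2 groups and 780 with the epithelium covariate, and the 3060 at 24 h became 2037 with 2 groups and 1996 with the epithelium covariate. The 1329 from 6 h to 24 h became 2169 with DESeq2, 2444 with 2 groups, 462 with the muscle and 162 with the epithelium covariate. The striatum count of 152 at 12 h became 860 with DESeq2, 308 without the filter, 1442 with 2 groups and 60 with the Xist covariate, and the 55 at 24 h became 203, 104, 0 and 3. Without 1 library these counts ran from 684 (6 h replicate 3) to 1898 (PTU replicate 1), 1957 (PTU replicate 2) to 4264 (PTU replicate 1), 661 (6 h replicate 2) to 2038 (PTU replicate 1), 0 (PTU replicate 3) to 1257 (24 h replicate 2) and 0 (PTU replicate 3) to 115 (24 h replicate 2). The cause was not tested. The sign turned for Lep in WAT at 24 h with the muscle covariate (0.17) and for Rbp4 in striatum at 24 h with the Xist covariate (0.0878). Without 1 library it turned for Cfd in WAT at 6 h (-0.0148 to 0.22), Lep in WAT at 24 h (-0.26 to 0.22), Nrg4 in striatum at 12 h (-0.37 to 0.13), and Nampt there at 12 h (-0.13 to 0.0563) and 24 h (-0.0504 to 0.13), and none of these was called. Same-numbered WAT libraries had no shared direction of deviation (residual r -0.47 to 0.39 over 12 pairs). Pairs of unlike number were not compared, so whether the numbers pair samples is not settled. With the replicate block 3, 3 and 1 members were called in the WAT contrasts, Retn at 24 h was lost (adjusted p 0.0781), and 778 genes were called from 6 h to 24 h. No paired analysis was possible in striatum because PTU shares only replicate number 3 with the TH groups, so that a block would leave 1 PTU library in the comparison. Depth limits Fgf21 in WAT, and Lep, Fgf21, Adipoq and Cfd in striatum.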
